A study of Drosophila melanogaster with 2 samples.

Results

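The intergenic peaks away from promoters were the reproducible CG11617-GFP binding peaks whose summit lay outside the body of every protein-coding gene and more than 500 bp from every protein-coding transcription start site (TSS). Reproducible peaks are those the authors kept by the irreproducible discovery rate, which compares peak ranks between replicates. The members numbered 383 of 5777 such peaks, or 6.63% (95% Wilson interval 6.02 to 7.30). Of the rest, 3841 summits lay within 500 bp of a coding TSS, here called promoter summits, and 1553 lay in a gene body away from any coding TSS. Among reproducible peaks the members were picked by position alone, so the identity of neighbouring genes and sequence played no part in that step. Signal counted before it: the 383 were those of 3309 pooled intergenic candidates that scored at least 162.9. The data were ChIP-seq of GFP, an immunoprecipitation of tagged protein with its bound DNA, from whole adult Drosophila melanogaster carrying a transgene for CG11617 fused at its C terminus to GFP. Males and females were pooled, the age was labelled unknown, and 1 group held 2 biological replicates, numbered 2 and 3. Chromatin was sonicated to fragments in a range of 200 to 800 bp per the labels, and the control experiment they name was not analysed here. Because whole flies were used, binding in a few cells and weak binding in many cells cannot be told apart, and only tagged protein was recovered. With 1 group there was no comparison between conditions and no test between samples; the values below describe these peak lists.

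CG11617 encodes a DNA-binding homeobox protein of the TALE class. Many homeodomains recognise short sequences rich in A and T, while TGACAG is a core bound by those of the TALE class. In flies, sequence between genes holds enhancers, which raise transcription of genes at a distance, insulators, which separate neighbouring domains, and the start sites of non-coding RNAs. Peaks of many factors recur at shared open sites of this kind, so a peak is a place where chromatin carrying the tagged protein was recovered, and by itself it names no target gene.

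The summit sequences of the 4 strongest member regions are shown first, because these places carry the highest signal between genes. They run from 50 bp before to 50 bp after the summit base, on the plus strand of dm6, from the RefSeq Release 6 genome, and capitals would mark TAATTA, the core recognised by many homeodomains, which none of the 4 holds. The first lies at chrX:12751287-12751387 between CG4004 and Paics, the second at chr2L:2202360-2202460 between COX7AL2 and CG31668, the third at chr3R:29214383-29214483 between Cyt-c1L and eEF1gamma, and the fourth at chrX:11560408-11560508 between CG1572 and PGRP-SA.
CG4004/Paics: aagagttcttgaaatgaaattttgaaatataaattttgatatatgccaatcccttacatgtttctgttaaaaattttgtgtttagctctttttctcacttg
COX7AL2/CG31668: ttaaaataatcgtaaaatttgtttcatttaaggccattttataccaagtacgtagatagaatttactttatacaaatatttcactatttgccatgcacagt
Cyt-c1L/eEF1gamma: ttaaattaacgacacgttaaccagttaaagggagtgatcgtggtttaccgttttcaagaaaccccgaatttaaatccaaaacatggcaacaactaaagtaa
CG1572/PGRP-SA: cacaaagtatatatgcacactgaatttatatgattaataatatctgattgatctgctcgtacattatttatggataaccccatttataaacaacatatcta
Their G+C content was 25.7%, 25.7%, 35.6% and 26.7% in that order, below the 40.9% of all eligible intergenic sequence in windows of the same length. A further 2 sequences come from strong members that do hold TAATTA within the window. The first lies at chr3R:21296253-21296353 just inside lncRNA:Hsromega, and the second at chrX:2124179-2124279 between ph-d and ph-p.
lncRNA:Hsromega: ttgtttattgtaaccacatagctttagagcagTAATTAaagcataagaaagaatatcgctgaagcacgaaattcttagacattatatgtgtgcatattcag
ph-d/ph-p: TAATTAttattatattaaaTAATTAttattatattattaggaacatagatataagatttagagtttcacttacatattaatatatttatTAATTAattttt
The core occurs once in the Hsromega window and 3 times in the ph-d/ph-p window, which has a G+C content of 9.90%.

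Among reproducible peaks, the members were slightly weaker than promoter peaks and slightly stronger than gene-body peaks, with wide overlap between the classes. The signal is the authors' peak score in the list of pooled replicates, a number with no fixed range. It ran from 163 to 2838 over the members, with a median of 255 and quartiles of 198 and 398. Promoter summits had a median of 269 (quartiles 202 and 428) and gene-body summits a median of 247 (quartiles 195 and 360.0). Each class starts at the same lowest reproducible signal, so these medians leave out weaker candidates. Of the pooled candidates, 11.6% of 3309 intergenic, 30.1% of 12754 promoter and 11.1% of 13937 gene-body ones reached that signal. Of the members, 179 (46.7%, interval 41.8 to 51.7) stood in the upper 50% of all reproducible peaks by signal, 29 in the top 500 and 5 in the top 100. The order against promoter summits changed with the range of signal considered: the ratio of medians was 0.947 over all entries and 1.017 among the 50% of entries of highest signal.

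**Figure D1:**
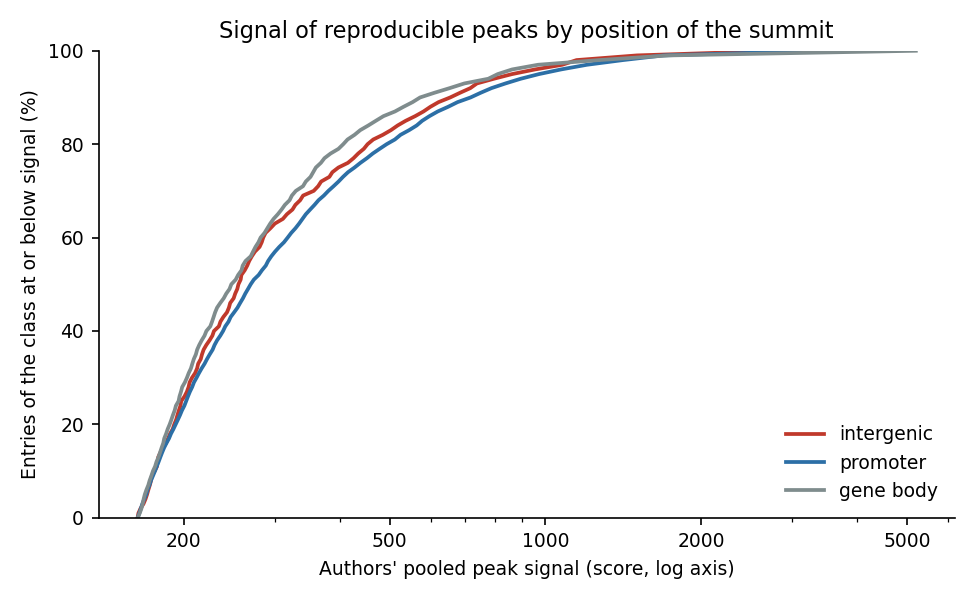
Cumulative distribution of the authors' pooled peak signal (horizontal, log axis) for intergenic, promoter and gene-body summits, as the share of each class at or below a signal (vertical). The 3 curves start at the same lowest reproducible signal and run close together, with medians of 255, 269 and 247.

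Both replicates carried the members, which the reproducibility filter largely ensures because it compares peak ranks between replicates. The values that follow describe the members and are no separate support for them. Every member overlapped an entry in each replicate's own list of candidates, lists that also contain background entries. The stricter measure was overlap with as many of a replicate's strongest entries as the reproducible set holds: 341 members (89%, interval 85.5 to 91.8) had this in replicate 2, 360 (94.0%, interval 91.2 to 96.0) in replicate 3, and 319 in both. The corresponding shares of promoter summits were 88.0% and 95.7%. The median score at members was 88.2 in replicate 2 and 192 in replicate 3, but scores are not scaled between lists, so the difference says nothing of more binding. The log2 ratio of replicate 3 to replicate 2 had a median of 1.14 (SD 0.40 over members) against 1.16 at promoter summits, and 9 members departed from the median by more than 2-fold. Across the 383 members the replicate scores had a Spearman correlation of 0.841, a description over places that share libraries and in which neighbouring entries can share a replicate entry.

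Overlapping member entries joined into 343 regions covering 158.93 kb, and the strongest of these are described in order of signal. The highest signal, 2838, was on X at position 12751337 with 869.9 in replicate 2 and 1999 in replicate 3. It lies inside lncRNA:Vinr, a long non-coding RNA, 1552 bp past the end of CG4004 and 5699 bp past the end of Paics, which encodes an enzyme of purine synthesis. It ranked seventh among all reproducible peaks, with promoter peaks included. The next region, on 2L, scored 2277 in the pooled list, 705 in replicate 2 and 1578 in replicate 3. It sits 1311 bp beyond the end of CG31668 and 4498 bp upstream of COX7AL2, a gene for a subunit-like protein of cytochrome c oxidase. The region on 3R beside eEF1gamma, a translation elongation factor, scored 1950.4 (577 and 1372 in replicates 2 and 3) and lies 129 bp upstream of the start of lncRNA:CR31044. In each of these replicate 3 had the higher score, as in the median over members.

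The region between CG1572 and PGRP-SA scored 1531 (507 and 1025 in replicates 2 and 3) and lies 1185 bp upstream of PGRP-SA, whose product senses Gram-positive bacteria for the Toll pathway. No reproducible summit lay at the PGRP-SA promoter itself, while CG1572 had one of 188. The fifth region, on 2R, scored 1496 (479 and 1021) in the long gap between Su(z)2, a Polycomb group gene, and CG13323, 27433 bp from the former and 9351 bp from the latter. The tenth, also on 2R, scored 1108 (367 and 736), 4235 bp upstream of Psc, a Polycomb group gene on the same arm, and 138 bp upstream of lncRNA:CR44339. Among the remaining strong regions, the sixth (1377) lay in lncRNA:CR43626 between CG43389 and ckd, the seventh (1227) in the narrow gap between the ends of Sol1 and the cytochrome P450 gene Cyp9f2, and the eighth (1216) between jp, the junctophilin gene, and brwl. Regions ranked 9, 11 and 19 (1110.2, 1104 and 867) shared the gap from Alp13 to Fmr1, and the twelfth (1088) shared the COX7AL2 gap. Ranks 13 to 18 and 20 scored from 1066 down to 863 and lay beside Boot and Ctu1, CG30151 and CG30154, CG10527 and Treh, Gr93d and glec, nej and btd, CG3842 and CG3847, and hry and SrpRbeta. Of these neighbours, Treh encodes trehalase, which splits the blood sugar of insects, nej the histone acetyltransferase CBP, and btd a zinc-finger regulator of head development.

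**Figure D2:**
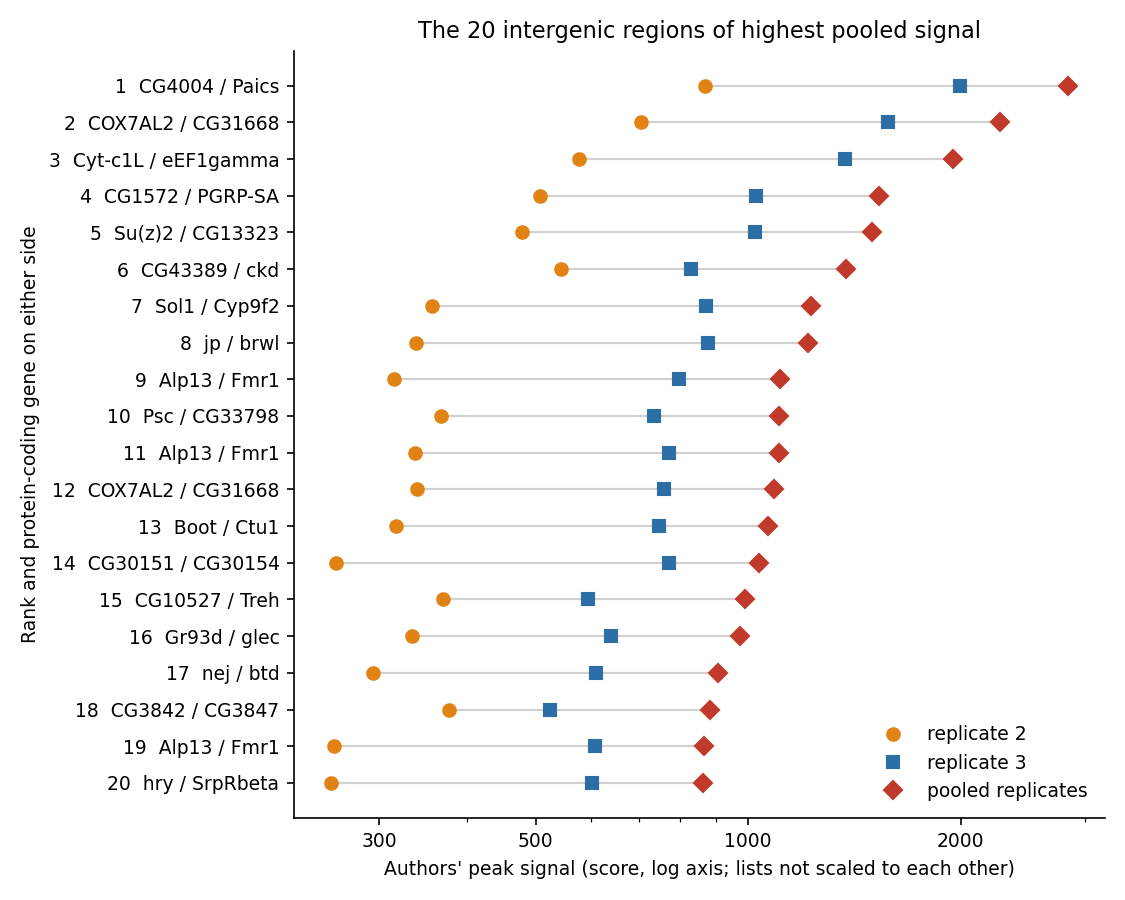
Authors' peak signal (horizontal, log axis) of the 20 strongest intergenic regions in replicate 2 (circles), replicate 3 (squares) and the pooled replicates (diamonds), named by the coding gene on either side. Replicate 3 lies above replicate 2 in every region shown, and the pooled score falls from 2838 to 863.

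Members crowded toward genes. Their summits lay a median of 2777 bp from the nearest coding TSS (quartiles 1279 and 6050, range 502 to 60334). All 39.9 Mb of sequence that meets the same rule, called eligible below, lay a median of 8465 bp away. The 2926 intergenic candidates that failed the reproducibility filter lay a median of 3195 bp away, so most of this nearness was not particular to the members. Per Mb of eligible sequence there were 31.7 members at up to 1 kb from a TSS, 21.4 at 1 to 2 kb, 14.6 at 2 to 5 kb, 6.36 at 5 to 10 kb and 3.48 beyond that. The median gap between genes that held a member was 8411 bp long, against 29328 bp for the average eligible base. Signal did not follow this gradient: the 72 members nearest a TSS had a median of 261, and the 112 more than 5 kb away had a median of 252. The nearest TSS pointed away from the member, so that the summit was upstream of it, in 246 cases (64.2%, interval 59.3 to 68.9), and this held for 59.3% of eligible bases. Divergent gaps, with a TSS at each end, held 109 members (28.5%) and 23.8% of eligible bases; convergent gaps held 91 (23.8%) and 21.9%. The 6 chromosome arms ranged from 7.95 members per Mb of eligible sequence on 2R to 10.8 on 3R.

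The members also lay often just past gene ends. Within 500 bp downstream of a coding gene's end lay 63 members (16.4%, interval 13.1 to 20.5), compared with 4.96% of eligible bases and with 17.0% of the 2926 intergenic candidates that failed the reproducibility filter. Their median signal of 245 was close to that of the 383 as a whole. This excess was seen at 1 to 2 kb from a TSS (31.2% of members, 17.1% of bases) and at larger distances, but not below 1 kb, where 18.1% of members and 22.9% of bases were so placed. Under the rule that the whole peak, not its summit alone, must lie outside gene bodies, the share was 10.54%.

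Non-coding RNA genes were frequent neighbours. A summit lay within 500 bp of a non-coding TSS in 81 members (21.1%, interval 17.4 to 25.5), against 3.71% of eligible bases. The share was above that of bases in each band of distance from a coding TSS, from 16.7% against 7.01% below 1 kb to 27% against 2.19% beyond 10 kb. Among the same 2926 candidates it was 12.3%. Counting gene bodies too, 117 members (30.5%, interval 26.1 to 35.3) touched a non-coding gene, and 8.52% of eligible bases do. Summits sat a median of 110 bp upstream of the non-coding TSS, with 53 of 81 upstream, and promoter summits sat a median of 65 bp upstream of the coding TSS. Members near a non-coding TSS had a median signal of 282. The 117 members touching a non-coding gene in either way had a median of 256, and the 266 touching none a median of 255.

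Among these genes were 79 of 2017 annotated long non-coding RNAs and 7 of 503 antisense RNAs, totals that cover the whole annotation and not only eligible sequence. By summit, 100 members (26.1%) touched a long non-coding RNA, against 7.80% of eligible bases, and 10 (2.61%) an antisense RNA, against 0.301%. Besides those named above, the let-7 complex transcript lncRNA:let7C, the precursor of the developmental microRNA let-7, held a summit 537 bp past its start that scored 774 (232 in replicate 2 and 547 in replicate 3). lncRNA:Hsromega, a heat-inducible nuclear RNA that organises RNA-binding proteins into speckles, held one 176 bp past its start that scored 753 (263 and 482). Both rank among the 30 strongest member regions, and replicate 3 again gave the higher score. Uhg4, a host transcript for small nucleolar RNAs, had a summit 66 bp upstream of its start that scored 1066 (318 and 749). Others of the strongest summits at long non-coding RNAs were beside lncRNA:CR44651 (1038), lncRNA:CR42657 between nej and btd (908), lncRNA:CR45054 between Alp13 and Fmr1 (867), lncRNA:CR45542 next to Hex-A (801) and lncRNA:CR44619 next to lncRNA:Vinr (794).

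Small structured RNAs accounted for few members, though each kind met covers little sequence: snoRNA genes were within 500 bp of 5 summits (1.31%, against 0.0544% of eligible bases), snRNA genes of 2 (0.522%, 0.0244%), tRNA genes of 3 (0.783%, 0.239%) and microRNA genes of 2 (0.522%, 0.157%). The 4 tRNA genes met, 2 for arginine (tRNA:Arg-CCT-1-2 and tRNA:Arg-CCT-1-3) and 2 for serine (tRNA:Ser-TGA-1-1 and tRNA:Ser-TGA-2-1), lie as divergent pairs on 2R. The 3 summits between them scored 197 to 252, so they stand below the member median. The 3 snRNA genes were snRNA:7SKa, the RNA that restrains the elongation kinase P-TEFb, with a summit of 316 inside it, and the neighbouring snRNA:U6:96Ab and snRNA:U6:96Ac, spliceosomal RNAs that share a summit of 215. The microRNA genes were mir-275, with a summit 464 bp upstream that scored 386, and mir-2496, with a summit 173 bp upstream that scored 224. The 6 snoRNA genes include the pair behind the Uhg4 start, snoRNA:Psi28S-2949 and snoRNA:Or-aca5, and 4 others with summits of 179 to 430 (snoRNA:Psi18S-176, snoRNA:Me28S-G3081a, snoRNA:Me28S-C2645a and snoRNA:Psi18S-301). No summit lay at an annotated rRNA gene, which allows a share of up to 0.783% (3 counts of 383).

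Repeats were sparse. Only 2 members (0.522%, interval 0.143 to 1.88) fell in an annotated transposable element, each an INE-1 copy, with signals of 207 and 245, while 10.5% of eligible bases do. Of the candidates below the reproducibility filter 1.64% did. The share of bases rose from 3.76% below 1 kb from a coding TSS to 14.3% beyond 10 kb, and members crowd toward TSSs. The 2 members lay at 1 to 2 kb (1 of 80, against 5.16% of bases) and at 2 to 5 kb (1 of 119, against 7.15%). Soft-masked bases lay under 76 summits (19.8%, interval 16.2 to 24.1) and make up 26.2% of eligible bases. How reads that map to many places were handled is not given in the sources used here, and its part in these shares was not tested.

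**Figure D3:**
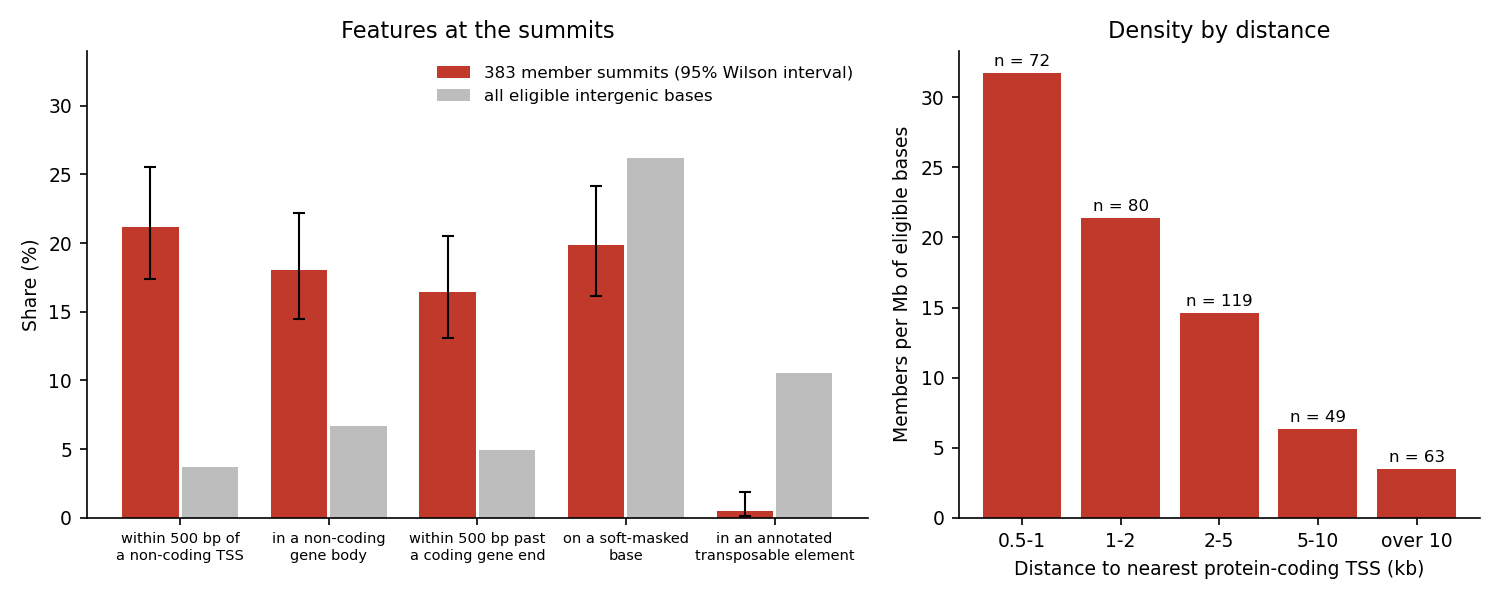
Left, share (%) of the 383 member summits with a feature (red, bars with 95% Wilson intervals) and of all eligible intergenic bases (grey). Right, members per Mb of eligible bases (vertical) by distance to the nearest coding TSS in kb (horizontal), falling from 31.7 to 3.48.

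Few members overlapped or lay close to a promoter or gene-body peak. The rule itself keeps members more than 500 bp from every coding TSS, so these distances cannot show whether a member is the shoulder of another peak. The nearest summit of another class lay a median of 7238 bp away, and 309 members (80.7%) were more than 2 kb from any. Entries of 18 members overlapped an entry of another class, which was the stronger in 12 cases. Within 1 kb of a summit of another class lay 29 member summits, and the other summit was the stronger for 21 of them. At the threshold itself, the members just beyond 500 bp were near CG3348 (502 bp, signal 357), CrebA (507 bp, 567) and prtp (508 bp, 484), and the summits outside gene bodies just within it near CG17544 (499 bp, 223), CG2865 (497 bp, 290) and CG17896 (496 bp, 664). The position of the threshold matters to the count: with a window of 250 bp there would be 612 members.

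Many member regions lay near another. The share of grouped regions was not computed for promoter, gene-body or weaker intergenic peaks, so it is not shown to be particular to the members. With a gap of at most 10 kb between neighbours, 138 of the 343 regions (40.2%, interval 35.2 to 45.5) had another within reach, in 48 groups of 2 or more and 22 of 3 or more. Grouped regions had a median signal of 280 and single ones a median of 248. The median distance to the next region on the arm was 130155 bp. The 343 regions occupied 258 gaps between genes, of which 47 held 2 or more.

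The group between Alp13, an alkaline phosphatase gene, and Fmr1, the fly counterpart of the fragile X gene that encodes an RNA-binding regulator of translation, had 7 regions in 15302 bp of 3R. From its first base the pooled signals in order were 1110.2, 255, 1104, 867, 573, 281 and 234. Replicate 2 gave 315, 84.4, 337, 259, 196, 75.9 and 75.5 at the same places, and replicate 3 gave 797, 176, 774, 607, 371, 198 and 164. The 4 high regions thus lie on the Alp13 side, and both replicates share that profile. The annotation also places lncRNA:CR45054, mir-317, lncRNA:CR43459, mir-277 and mir-34 in this gap, all on the plus strand: the fourth and the fifth region lie in lncRNA:CR45054, and the last region spans the start of lncRNA:CR43459, which contains mir-277 and mir-34. The Alp13 promoter summit (255) scored below 6 of the 7 regions, though hardly below the second, and the Fmr1 promoter summit (213) below all 7.

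The group around hry, the bHLH repressor gene also called hairy that acts in segmentation and bristle patterning, also had 7 regions, over 30265 bp of 3L. A pair scored 266 and 186 upstream of hry, and the others, at 203, 712, 441, 863 and 464, lay in the gap toward SrpRbeta. The 4 strongest lay more than 16 kb from the hry start, and the hry promoter summit itself scored 375. Next, 6 regions in 19110 bp of 3L flanked scyl, the gene of a stress-induced inhibitor of TOR signalling. Their signals ran from 167 to 459. Counting regions farther out, scyl was the coding neighbour of 9, the highest number for any gene.

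The group around Hex-A, a hexokinase gene, had 5 regions in 17690 bp of X. Their pooled signals were 397, 732, 801, 184 and 254, with 128, 263, 305, 72.0 and 103 in replicate 2 and 274, 487, 503, 115 and 158 in replicate 3. The Hex-A promoter peak between them scored 2861, so here, unlike the Alp13 to Fmr1 gap, the promoter stood above every intergenic neighbour. The fifth group held 5 regions in 5541 bp of 3L between CG6168 and CG6163, with signals of 212 to 557. The strongest region of all, in lncRNA:Vinr, belonged to a group of 4 between CG4004 and Paics, whose other signals were 794, 382 and 536.

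**Figure D4:**
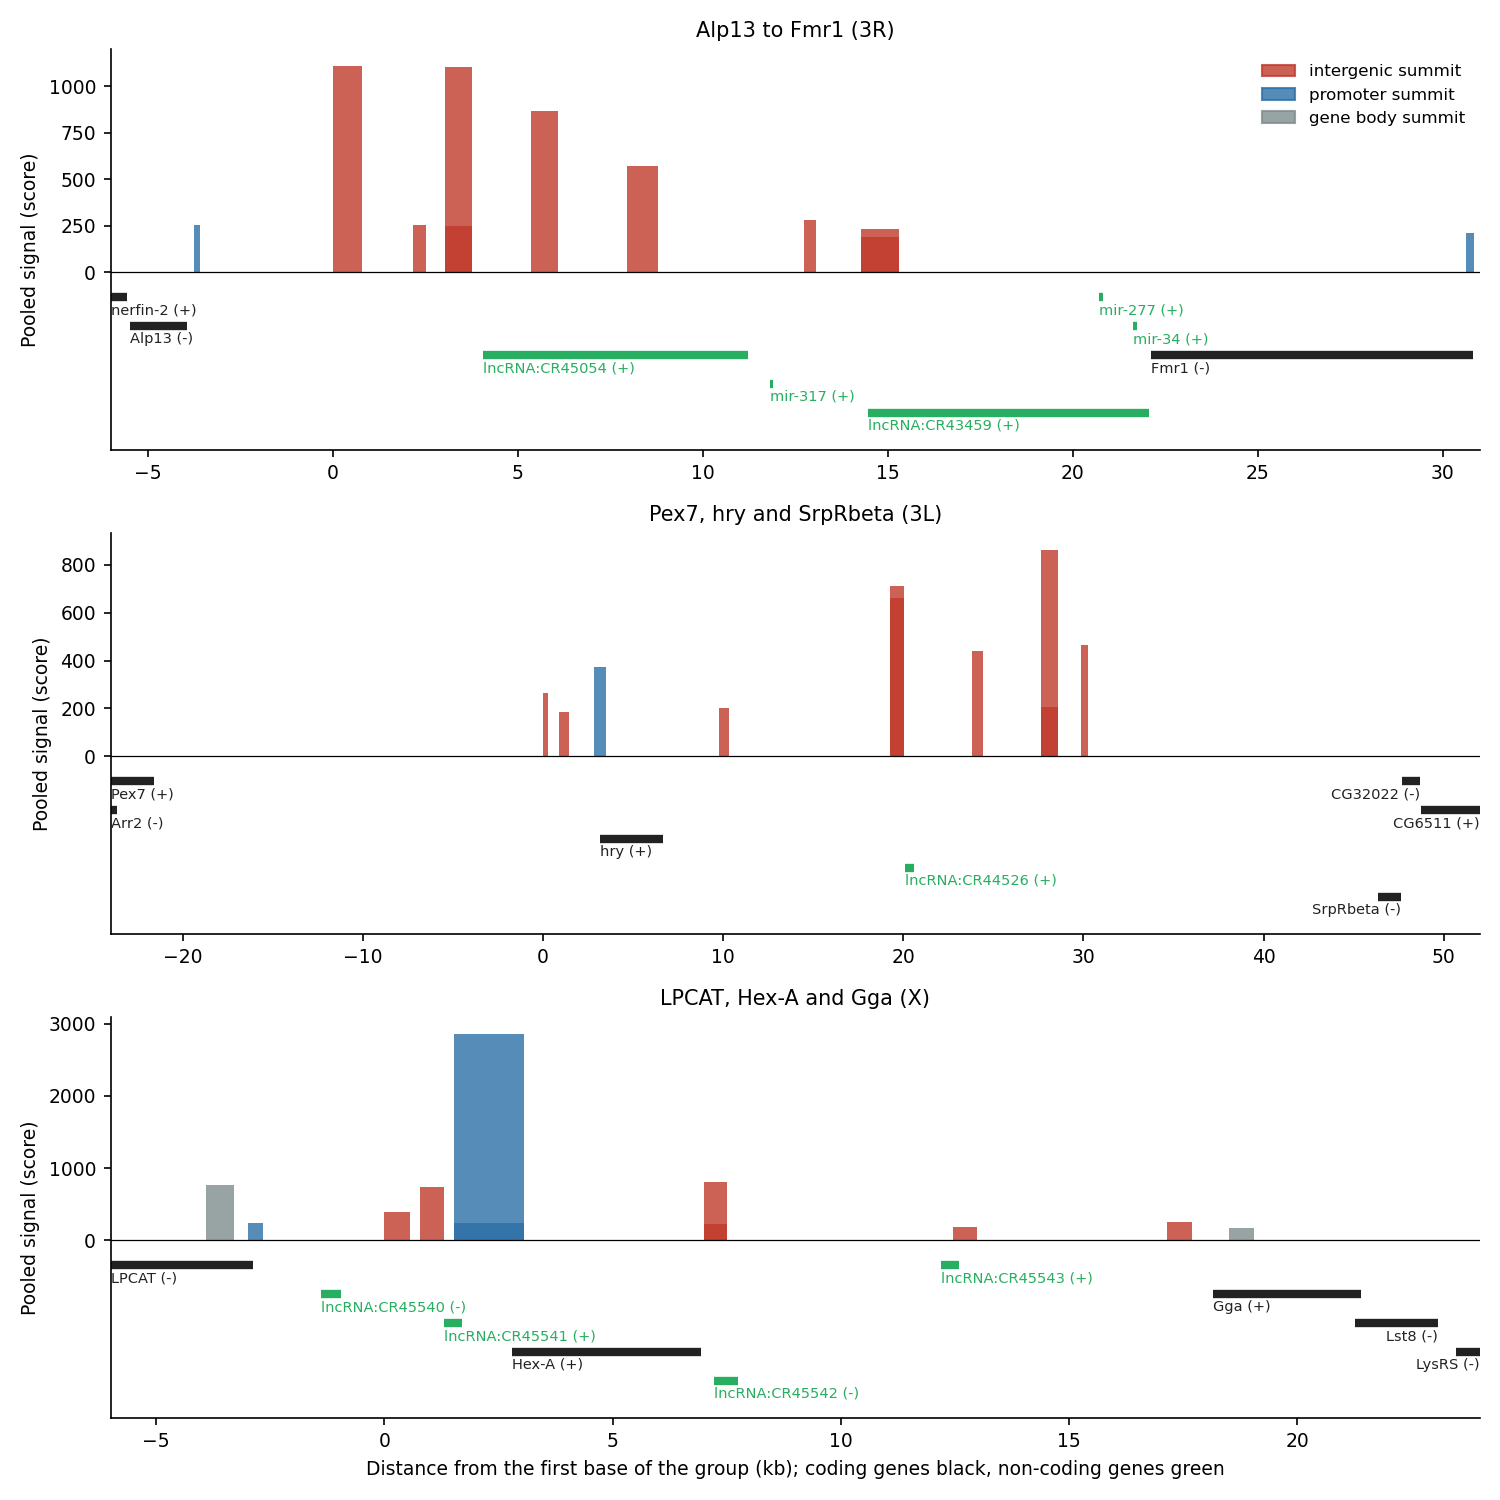
Pooled peak signal (vertical; bar width is the extent of the peak) along 3 groups of neighbouring intergenic regions, in kb from the first base of the group (horizontal), with coding genes in black and non-coding genes in green and strand in brackets. In the Alp13 to Fmr1 gap the intergenic peaks reach 1110.2, above both promoter peaks, and around Hex-A the promoter peak of 2861 is highest.

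Genes beside the members were diverse. In all, 489 of 13945 coding genes (3.51%) flanked a member, and 45 of them flanked 3 or more regions. Since long gaps offer more room, each list of genes is given with its count of flanking genes and with the number of member regions per Mb of eligible sequence beside the list, which was 8.59 over all gaps. With few regions beside most lists, these densities are descriptions only. Of the flanking genes, 191 (39.1%, interval 34.8 to 43.5) had a promoter summit of their own, compared with 25.4% of the 8118 genes that border any eligible sequence. A binding region in a gap therefore often went along with a peak at the promoter of a neighbour, but most flanking genes had none.

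Chromatin and insulator factors, a list that includes Polycomb group genes, had 6 of 31 members beside a region (19.4%, interval 9.19 to 36.3) and 120.4 regions per Mb. These were Su(z)2 (strongest flanking region 1496), Psc (1108), ph-p and ph-d (a shared region of 725), and the BTB-domain genes lola and psq (a shared region of 338). All 6 also had a promoter summit, of 266, 266, 1557, 608, 923 and 540.4 in that order, and 64.5% of the whole list did. The count of genes is raised by sharing, since ph-p and ph-d border the same region, as do lola and psq. Psc, Su(z)2, ph-p and ph-d all encode subunits of Polycomb repressive complex 1 or close relatives of them.

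Glycolysis and insulin or TOR signalling genes gave 6 of 41 (14.6%, interval 6.88 to 28.4) and 112 regions per Mb, over only 116 kb of eligible sequence. Beside Hex-A these were Sesn (719), an inhibitor of TOR complex 1, foxo (548), the transcription factor restrained by insulin, Ald1 (218), an aldolase gene, REPTOR (215), a factor released when TOR is low, and Thor (197), the translational repressor 4E-BP. Each of the 6 had a promoter summit, as did 61.0% of the whole list. These summits scored 2861 for Hex-A, 1713 for Sesn, 547 for foxo, 314 for Ald1, 1851 for REPTOR and 408 for Thor. The promoter was thus the stronger place for 5 of the 6, with foxo at nearly equal scores. The TOR inhibitor gene scyl, described above as the neighbour of 9 regions, was not counted in this list. Cytosolic ribosomal protein genes gave 6 of 86 (6.98%) and 10.1 regions per Mb, with RpS15Aa (319) and RpS7 (314) highest, and all 6 had a promoter summit, as did 89.5% of the list.

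Of 84 homeobox genes 11 flanked a member (13.1%, interval 7.47 to 21.9), but they border long gaps, and the density beside them was 5.64 regions per Mb. The strongest were at C15 (599), hth (448), Optix (315) and ct (257), of which hth encodes a homeodomain partner of Hox proteins and C15, Optix and ct encode regulators of leg, eye and sensory development. Of the 11, hth had a promoter summit, of 177, and 9.52% of the whole list had one. The list of bHLH, HMG-box, forkhead, GATA, ETS and T-box regulators gave 10 of 98 (10.2%) and 15.9 regions per Mb. Among the genes counted, Myc (713), foxo (548), and srp and GATAe (a shared region of 287) were highest. Of these 10, 4 had a promoter summit, as did 28.6% of the whole list. The bHLH gene hry, described above, was not counted in this list, although it flanked 7 regions of up to 863. The count and density of this list are therefore incomplete. Nuclear receptor and ecdysone response genes gave 3 of 28 at 22.0 regions per Mb, namely Eip93F (274), Eip75B (262) and Eip78C (180). The first and the second of these had a promoter summit, as did 50% of the whole list. Of 54 genes of the Notch, Wnt, Hedgehog, BMP and EGFR pathways only fng (250) flanked a member, at 2.97 regions per Mb.

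Neuronal, muscle, immune, clock and chaperone genes followed. Of 36 neuronal excitability and synapse genes 5 flanked a member (13.9%, interval 6.08 to 28.7), at 18.9 regions per Mb. They were nAChRalpha7 (731), a nicotinic receptor subunit, brp (427), the active-zone scaffold Bruchpilot, nrv2 (262), a sodium pump subunit, and ple (237) and Ddc (192), which encode the enzymes that make dopamine. None of these 5 had a promoter summit, and 11.1% of the whole list did. Of 36 muscle and sarcomere genes only Zasp52 (461), which encodes a Z-disc protein, flanked a member, at 5.19 regions per Mb. Toll, Imd, JAK-STAT and JNK genes gave 3 of 44 at 22.1 regions per Mb, namely PGRP-SA (1531), the NF-kappaB gene dl (411) and the Fos gene kay (245). The clock list of 10 gave only cwo (268), at 28.2 regions per Mb, and the 23 heat shock and co-chaperone genes only stv (638), at 23, each density resting on 1 region.

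The large gene families had shares whose intervals include the 3.51% of all genes. Chemoreceptor and odorant-binding genes gave 6 of 231 (2.60%, interval 1.20 to 5.55) and 5.54 regions per Mb, with Gr93d (973) and Or45b (606) highest. Detoxification enzymes gave 5 of 155 (3.23%, interval 1.39 to 7.33) and 6.82 regions per Mb, led by Cyp9f2 (1227) and Ugt37C1 (640). Cuticle proteins gave 1 of 114 (0.877%, interval 0.155 to 4.80), Cpr76Ba (329), at 3.28 regions per Mb. The 5 members most remote from a coding TSS were all on 3L: 60334 bp from the Prat2 start in the gap that vvl borders (170), 59079 bp from Or67d (258), 48927 bp from CG12362 (242), 40304 bp from mirr in the gap with caup (227) and 34562 bp from CG43245 (211). The middle 3 of these 5 lay within 500 bp of a non-coding TSS.

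The summits were poor in G and C, as they were in every class. Windows reaching 50 bp to either side of member summits had a G+C content of 36.5%, their own flanks, centred 350 bp to either side, 41.9%, and all eligible windows 40.9%. Promoter summits stood at 37.3% and gene-body summits at 36.1%. Promoter peaks stood at 45.0% and the members at 40.2% in windows 1000 bp to the left of the summit on the plus strand. G+C content also affects the recovery of fragments in sequencing libraries, and its part in this dip was not tested.

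**Figure D5:**
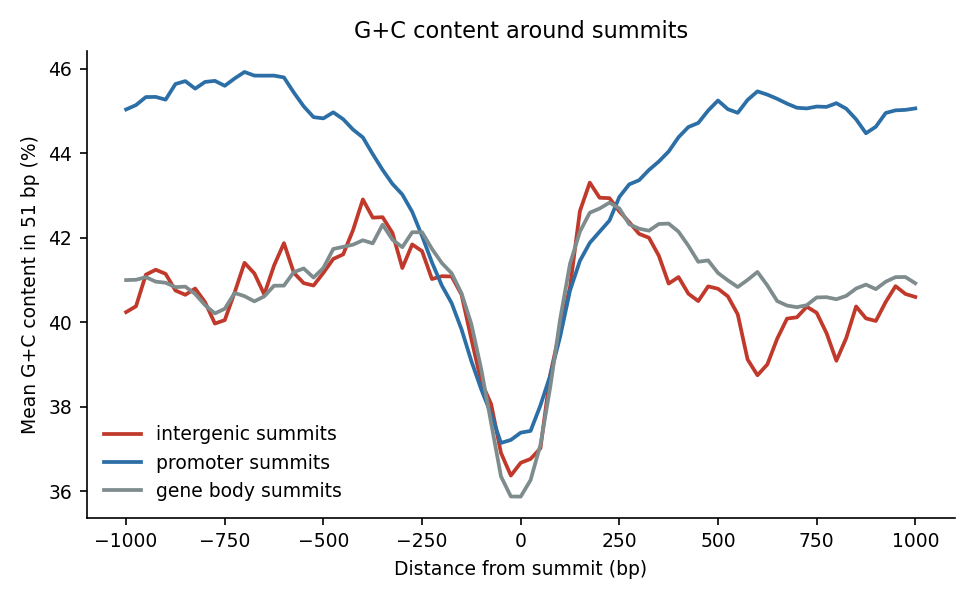
Mean G+C content (%) in 51-bp windows (vertical) against distance from the summit in bp (horizontal) for the 3 classes. All have their minimum within 50 bp of the summit, and 1000 bp to its left on the plus strand the intergenic class stands at 40.2% and the promoter class at 45.0%.

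Short motifs were searched as plain letters on both strands of the same windows. TAATTA occurred in 35 member windows (9.14%, interval 6.64 to 12.4), 9.50% of promoter windows and 9.98% of gene-body windows. Its share was 7.18% in flanks and 7.34% in all eligible windows. The order against the flanks was not stable: the member share divided by the flank share was 1.273, but 0.9375 without replicate 3 and 0.9333 in windows reaching 25 bp to either side. TGACAG, a core bound by homeodomains of the TALE class, that of CG11617, occurred in 1.83% (interval 0.888 to 3.72). This was below the 4.18% of flanks and 4.35% of eligible windows, while promoter windows (3.51%) and gene-body windows (2.32%) fell inside the interval. The Iroquois-type core TAACA stood at 19.8% against 20.9% of flanks and 25.2% of promoter windows, and the palindrome ACATGT at 1.83% against 3.79% of flanks. TATAAA occurred in 17.0% (interval 13.5 to 21.1) against 12.1% of flanks, but also in 19.1% of promoter and 20.3% of gene-body windows. GATAA, the GATA-factor core, occurred in 24.3% against 21.7% of flanks, 24.8% of promoter and 25.8% of gene-body windows. Neither excess over flanks was thus particular to the members. The summits also have a lower G+C content than their flanks, and the part of G+C content in these shares was not tested.

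CGATA, part of the site of the boundary protein BEAF-32, occurred in 12.5% of member windows (interval 9.58 to 16.2), 21.8% of promoter windows and 12.1% of gene-body windows. Its share was 9.92% in member flanks and 10.5% in all eligible windows. TATCGATA, the site of the replication-related factor DREF, which contains CGATA, occurred in 0.783% of member and 3.49% of promoter windows. In flanks and eligible windows it stood at 0.653% and 0.213%. GGTCACACT, bound by the promoter factor M1BP, occurred in no member window, which allows a share of up to 0.783% on the same basis, and in 1.82% of promoter windows. No flank held it, and only 0.0474% of eligible windows did, so its absence is not particular to the members. GAGAGAG, the GAGA-factor repeat, occurred in 2.09% of member windows (interval 1.06 to 4.07) and 2.32% of promoter windows. Flanks held it in 4.18% and eligible windows in 1.11%. A match is a run of letters in the window, and its absence says nothing of a factor's binding there.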

How the data were processed

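Signals are the authors' deposited peak scores (column 7 of narrowPeak lists on dm6, per the notes deposited with them). Each replicate and the pooled replicates have a list of 30000 candidates with background, and the reproducible set is the authors' selection by the irreproducible discovery rate (IDR). How reads were aligned, how peaks were called and how multiply mapped reads were handled was not given in the sources used here; no list holds read counts, so depth is unknown. Replicate 2 and replicate 3 are described as biological replicates in the labels, and their lists were not scaled to each other. The dm3 lists were not used.

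Summits were placed against 13945 protein-coding and 3470 non-coding genes of Ensembl release 115 (BDGP 6.54) on 6 chromosome arms. Mature microRNA products listed as separate genes were left out. A replicate's score for a peak is that of its strongest entry overlapping by at least 1 bp. Shares carry 95% Wilson intervals, which cover counting error only, and neighbouring peaks are not independent. Shares over eligible bases are full counts over 39.9 Mb. The 15 gene lists, 16 motifs and the members were chosen with earlier results of these data known, so a list's count is not independent support for anything. The lists are not complete, and up to 3 symbols of a list matched no gene of the annotation. Named were the 20 strongest regions with their neighbours, the 5 largest groups, the 12 non-coding genes with the strongest summits and all small structured RNA genes, up to 4 genes of each list by flanking signal, 3 summits on each side of the 500 bp threshold and the 5 farthest members. The let-7 complex, Hsromega, the CG4004 group, scyl as the neighbour of most regions, and list genes beyond the first 4 were named after their values were seen. Sequence of 2R is not printed. A sequence that the naming rule selects is not reported here. Alternatives changed the promoter window, merging, signal range, gene-body and non-coding rules, grouping distance and sequence window, and replaced the reproducible set by the 5777 strongest entries of either replicate alone. The placement, grouping and motif searches were tested on simulated data. Python 3.11.15 with numpy 2.4.6, pandas 2.3.3 and scipy 1.17.1 was used.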

Additional observations from a re-analysis of the deposited data

How the results depend on the processing

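Of 100 alternative values for 12 results, 79 stayed within the 95% interval of the reported value (for the number of members, within 1.5 times it) and 21 moved beyond it. The G+C interval (36.06 to 37.02) counts every base as independent and is too narrow for that reason. The intervals for ratios and for the replicate difference hold the comparison value fixed. No comparison carried a test. The direction turned for the signal of members against promoter summits and for the replicate ratio (both below), and for the TAATTA share divided by that of flanks, from 1.273 to 0.9375 without replicate 3 and 0.9333 in windows reaching 25 bp to either side. A promoter window of 250 bp gave 612 members (10.59% of reproducible peaks), a median TSS distance of 1044 bp, a non-coding share of 23.69% and a G+C content of 35.68%. A window of 1000 bp gave 5.383% and a median distance of 3767 bp. Leaving out summits in non-coding genes gave 5.435%. Keeping the 50% of entries of highest signal left 179 members, with a ratio of their median signal to that of promoter summits of 1.017, 52.51% in the upper part by signal, a G+C content of 35.48% and a difference in the replicate log2 ratio from other peaks of 0.02368 in place of -0.0004888, both near 0. The share past gene ends was 10.54% when the whole peak had to lie outside genes and 24.8% for a reach of 1000 bp. Grouped regions made up 29.74% at 5 kb and 48.98% at 20 kb. G+C content was 35.66% after merging, 37.47% in windows reaching 100 bp to either side, and between 37.06% and 37.13% when either replicate was left out; the cause was not tested. With 1 group no paired analysis was possible because there is no second group to pair. Read depth is unknown, so no limit of detection can be given for intergenic binding.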
